A study of Mus musculus with 8 samples.

Results

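The injury response of the Keap1 knockdown (KD) kidney was taken as the difference in messenger RNA between 2 arrays of KD kidneys after ischemia-reperfusion injury (IRI) and 2 arrays of uninjured KD kidneys, 4 of the 8 arrays of the study. A probe entered the comparison when it was not a control and stood well above background on both arrays of either KD group, which held for 26995 of 41174 probes. With 57 further probes left out for want of a value in 1 group, and with the brightest probe standing for each name, 20183 of the 32301 names on the array were tested, 13936 of them gene symbols. The mice were males aged 16 weeks. In the IRI groups the left renal artery and vein were clamped for 45 min and released, the right kidney was left unclamped, and the injured kidney was taken at day 1. The normal groups gave left kidneys of mice that had no such operation. Wild-type (WT) mice formed the other pair of groups, normal and IRI, again with 2 arrays each. The labels give the genotype as Keap1 knockdown without saying how or in which cells Keap1 was lowered, and they leave unsaid whether every array had its own animal. The p-values therefore reflect only how far these samples lay apart, a spread that may be technical.

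KEAP1 is the substrate adaptor that hands the transcription factor NRF2, the product of Nfe2l2, to the CUL3 ubiquitin ligase. Oxidants and electrophiles modify KEAP1, NRF2 then escapes breakdown and, paired with small MAF proteins, drives genes of glutathione synthesis, quinone reduction, heme breakdown and NADPH supply. The proximal tubule, which reclaims most of the filtered solutes and lives on fatty acid oxidation, is the segment most easily damaged when renal blood flow stops. Surviving tubule cells lose transporters and brush-border enzymes, take on injury markers such as KIM-1 and NGAL, and divide, while neutrophils and then monocytes enter the kidney.

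Values are given as log2 of the probe signal over the 75th percentile of its array, so that 0 is the brightness of that percentile. A change is the mean of the 2 KD IRI arrays minus the mean of the 2 KD normal arrays on that scale, ± its standard error (SE) from limma. Adjusted p is the Benjamini-Hochberg value over the 20183 genes, and "rose" and "fell" are used for genes with an adjusted p under 0.05. Levels of different probes are not comparable with each other. In whole kidney, fewer cells of a type and less RNA per cell cannot be told apart.

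Between 63.2% and 66.1% of the spots of the 4 KD arrays were well above background, no spot outside the controls was saturated, and replicate arrays correlated across genes at r = 0.991 for KD normal and 0.995 for KD IRI. The tissue markers were those of kidney on all 4 arrays: Slc34a1, the main phosphate transporter of the proximal tubule, read 7.14 and 7.02 in KD normal and 4.72 and 4.50 in KD IRI. Keap1 itself read 1.50 and 1.40 in KD normal and 1.33 and 1.04 in KD IRI. It was lower in KD normal than in WT normal by -1.25 on the log2 scale (adjusted p = 0.00404), and its change with injury within the KD genotype was -0.26 ± 0.12 (adjusted p = 0.0881), which did not pass. The Keap1 change passed without the first KD IRI array (-0.41) and with the replicate number, which is also the slide, as a block (adjusted p = 0.0286). The 2 KD normal arrays differed from each other on several lists. The summed signal of the neutrophil markers, in multiples of the array percentile, was 0.839 and 6.34 in KD normal and 53.7 and 60 in KD IRI, so the second KD normal array carried more than the first. The summed heat-shock signal was 952 and 633 in KD normal and 532 and 527 in KD IRI, so the first KD normal array carried more than the second. The KD normal sums were also 243 and 310 for tubule injury and 34.9 and 45.9 for fibrinogen, coagulation and fibrinolysis. For p53 and its targets they were 29.8 and 39.7, and for podocyte markers 50.3 and 34.4.

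Injury changed 12230 of the 20183 genes, 60.6% of those tested, in the KD kidney. Of these, 5646 (28% of the genes tested) were higher and 6584 (32.6%) lower in KD IRI, and 2604 rose and 2871 fell by at least 2-fold. At least 8-fold, 419 rose and 302 fell. The median change of all genes was -0.08 and the median absolute change 0.56. The change on the first slide, which held 1 array of each group, and on the second correlated across genes with r = 0.925, a description since genes are not independent replicates. Among the genes kept by the filter through KD IRI alone, 804 of 1316 rose, and among those kept through KD normal alone, 488 of 632 fell. Such genes are high in one group by selection, so the counts below are also given for genes above background in both groups wherever many of a list's members were kept through KD IRI alone. The counts for each list below are to be read against these shares.

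Havcr1, which encodes the tubule injury receptor KIM-1, had the largest rise among genes measured on both sides. It read -2.94 and -3.50 in KD normal and 5.52 and 5.35 in KD IRI, a change of 8.66 ± 0.37 (403-fold, adjusted p = 1.64e-05). Krt20, a keratin that injured tubule cells take up, read -2.02 and -1.10 in KD normal and 5.48 and 5.35 in KD IRI and rose by 6.97 ± 0.46 (adjusted p = 4.34e-05). Lcn2, the gene of the iron-carrier-binding protein NGAL, read -4.22 and -2.88 in KD normal and 2.61 and 2.76 in KD IRI and rose by 6.23 ± 0.52 (adjusted p = 9.2e-05). Its 2 KD normal arrays lay far apart from each other, but both were well below either KD IRI array. Sprr2f, a small proline-rich protein of stressed epithelia, rose by 6.83 ± 0.53 (adjusted p = 7.05e-05). Timp1, an inhibitor of matrix metalloproteinases, read -2.15 and -1.25 in KD normal and 4.11 and 4.50 in KD IRI and rose by 6.0 ± 0.36 (adjusted p = 3.35e-05). Of the 24 tubule injury genes tested, 19 rose, 0 fell and 5 stayed short of the threshold, at a median change of 2.65 against -0.08 for all genes. Cdkn1a, the cell-cycle inhibitor p21, was the largest change in the list that did not pass: it read -0.51 and 0.84 in KD normal and 1.18 and 1.42 in KD IRI, a change of 1.14 ± 0.46 (adjusted p = 0.0664), and passed under normexp, with the replicate number as a block (adjusted p = 0.00918) and, at 1.81, when the second KD normal array was left out.

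**Figure D1:**
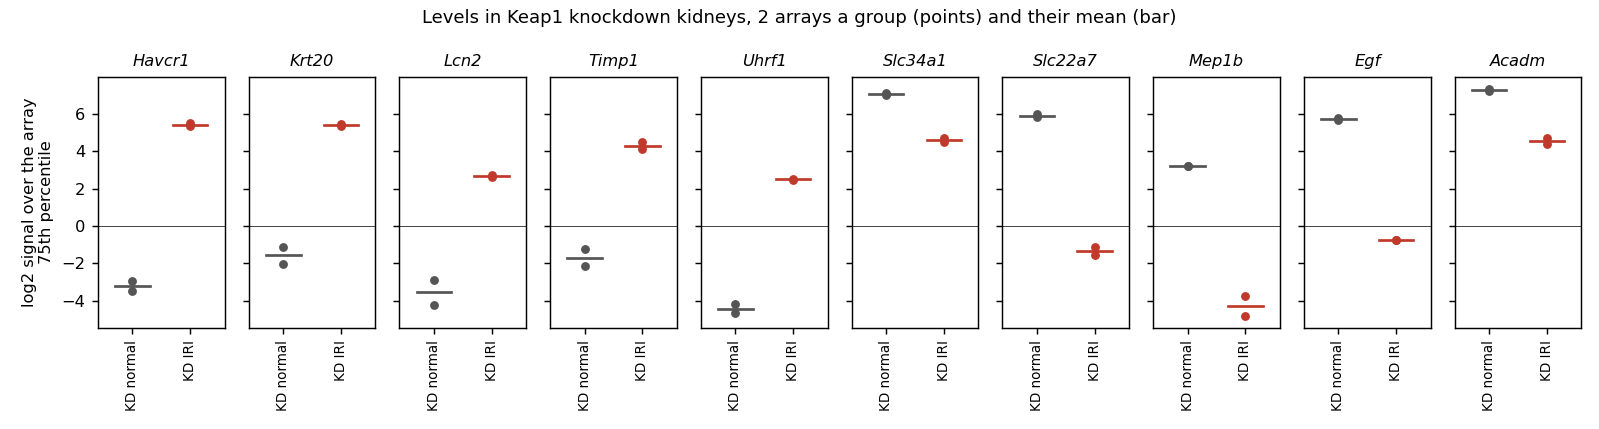
Levels of 10 genes in the uninjured (KD normal) and injured (KD IRI) Keap1 knockdown kidney. The y axis is the log2 level relative to the array's upper quartile, each point is 1 array and each bar the mean of 2, and levels of different genes are not comparable. For Havcr1, Krt20, Lcn2, Timp1 and Uhrf1 both KD IRI points lie above both KD normal points, and for Slc34a1, Slc22a7, Mep1b, Egf and Acadm both lie below.

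Other genes with the largest measured rises came from several functions. Adam8, a cell-surface protease, read -1.33 and -1.02 in KD normal and 4.71 and 4.82 in KD IRI and rose by 5.94 ± 0.11 (adjusted p = 1.86e-06). Flnc, the actin cross-linker filamin C, read -3.75 and -4.28 in KD normal and 1.87 and 2.34 in KD IRI and rose by 6.12 ± 0.36. Trip13, an ATPase of the spindle checkpoint, read -4.56 and -4.54 in KD normal and 1.14 and 1.44 in KD IRI and rose by 5.84 ± 0.19. In none of these 3 genes did the arrays of the groups overlap. Fosl1, an AP-1 subunit, and Ltbp2, a matrix protein, rose by 6.53 ± 0.35 and 5.70 ± 0.36 (adjusted p = 2.5e-05 and 3.78e-05), each well above background on only 1 of the 2 KD normal arrays. For genes well above background on neither KD normal array only a lower bound on the fold can be given, set against the dimmest probe that still stood well above background on those arrays. Crct1, a cysteine-rich protein of squamous epithelia, was at least 65.6-fold higher (measured means -7.54 and 0.54, adjusted p = 9.5e-06). Il1rn, the antagonist of the interleukin-1 receptor, was at least 68.7-fold higher (measured means -6.84 and 0.61, adjusted p = 8.29e-06). Aunip, a centrosome and DNA-repair protein, was at least 101-fold higher (measured means -6.25 and 1.16, adjusted p = 1.01e-05).

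The immediate-early and AP-1 genes did not all move one way. Of 16 tested, 10 rose and 3 fell, with a median of 1.16. Myc read -2.12 and -1.63 in KD normal and 0.75 and 0.99 in KD IRI and rose by 2.74 ± 0.19 (adjusted p = 4.88e-05). Junb rose by 1.56 ± 0.14 and Egr2 by 1.84 ± 0.27 (adjusted p = 0.00013 and 0.00105). Dusp1, a phosphatase that switches off MAP kinases, read 2.24 and 2.86 in KD normal and 0.14 and 0.29 in KD IRI and fell by 2.34 ± 0.38 (adjusted p = 0.00164). Nr4a1, an orphan nuclear receptor, read 2.70 and 2.74 in KD normal and 1.21 and 1.92 in KD IRI and fell by 1.16 ± 0.24 (adjusted p = 0.00558). The groups of 2 arrays did not overlap for any of these 5 genes. Such separation was common and adds little to the tests. It held for 10 of 12 podocyte markers and 9 of 11 housekeeping genes, and its share over all genes is not given here.

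Nearly every DNA replication gene rose. Of 32 genes tested, 31 rose and 0 fell, with a median of 3.18, and all 29 members above background in both groups rose. Uhrf1, which brings the maintenance DNA methyltransferase to newly copied DNA, read -4.17 and -4.68 in KD normal and 2.46 and 2.54 in KD IRI and rose by 6.92 ± 0.30 (adjusted p = 1.67e-05). Chaf1b, a subunit of the chromatin assembly factor that loads histones behind the fork, read -2.45 and -2.54 in KD normal and 2.70 and 2.90 in KD IRI and rose by 5.30 ± 0.16 (adjusted p = 6.55e-06). Mcm5, a subunit of the replicative helicase, read -1.61 and -1.63 in KD normal and 3.51 and 3.54 in KD IRI and rose by 5.15 ± 0.36 (adjusted p = 5.04e-05). Ccne1, cyclin E1 of the G1 to S transition, read -2.29 and -2.15 in KD normal and 2.47 and 2.59 in KD IRI and rose by 4.75 ± 0.21 (adjusted p = 1.79e-05). The arrays within each group lay close together for all 4 genes and the groups were far apart. Orc1, of the origin recognition complex, was the exception that did not pass, with -3.43 and -7.75 in KD normal and -3.21 and -3.16 in KD IRI (change 2.41 ± 1.17, adjusted p = 0.115) and only 1 KD normal array above background. Without the first KD normal array Orc1 rose by 4.56 (adjusted p = 0.000236).

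Mitosis and cytokinesis genes followed. Of 27 tested, 26 rose and 1 fell, and the median change was 4.28 (3.72 if genes under background are set to their bound, 2.56 under normexp). As 11 of them had been kept through KD IRI alone, the 16 measured in both groups are the firmer set: 15 rose and 1 fell, with a median of 3.73. Cdk1, the kinase that drives entry into mitosis, read -5.01 and -5.19 in KD normal and 0.22 and 0.62 in KD IRI and rose by 5.52 ± 0.32 (adjusted p = 3.01e-05). Aurkb, the chromosomal passenger kinase, was at least 25-fold higher (measured means -7.19 and -0.85, adjusted p = 2.14e-05). Ccnb1, cyclin B1, was at least 12.2-fold higher (measured means -7.32 and -1.89, adjusted p = 3.33e-05), and Nuf2, of the kinetochore, at least 44.1-fold (measured means -5.78 and -0.034, adjusted p = 4.19e-05). The member that fell was Bub1, a spindle checkpoint kinase, by 0.95 ± 0.31 (adjusted p = 0.0338), a call lost without any 1 of the 4 KD arrays. Another Bub1 probe was called in the opposite direction, and the mean of its probes rose by 2.22, so the direction of Bub1 depended on the probe. The summed signal of the list was 4.76 and 4.8 in KD normal and 37.3 and 56.8 in KD IRI, 1 KD IRI array being higher than the other.

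**Figure D2:**
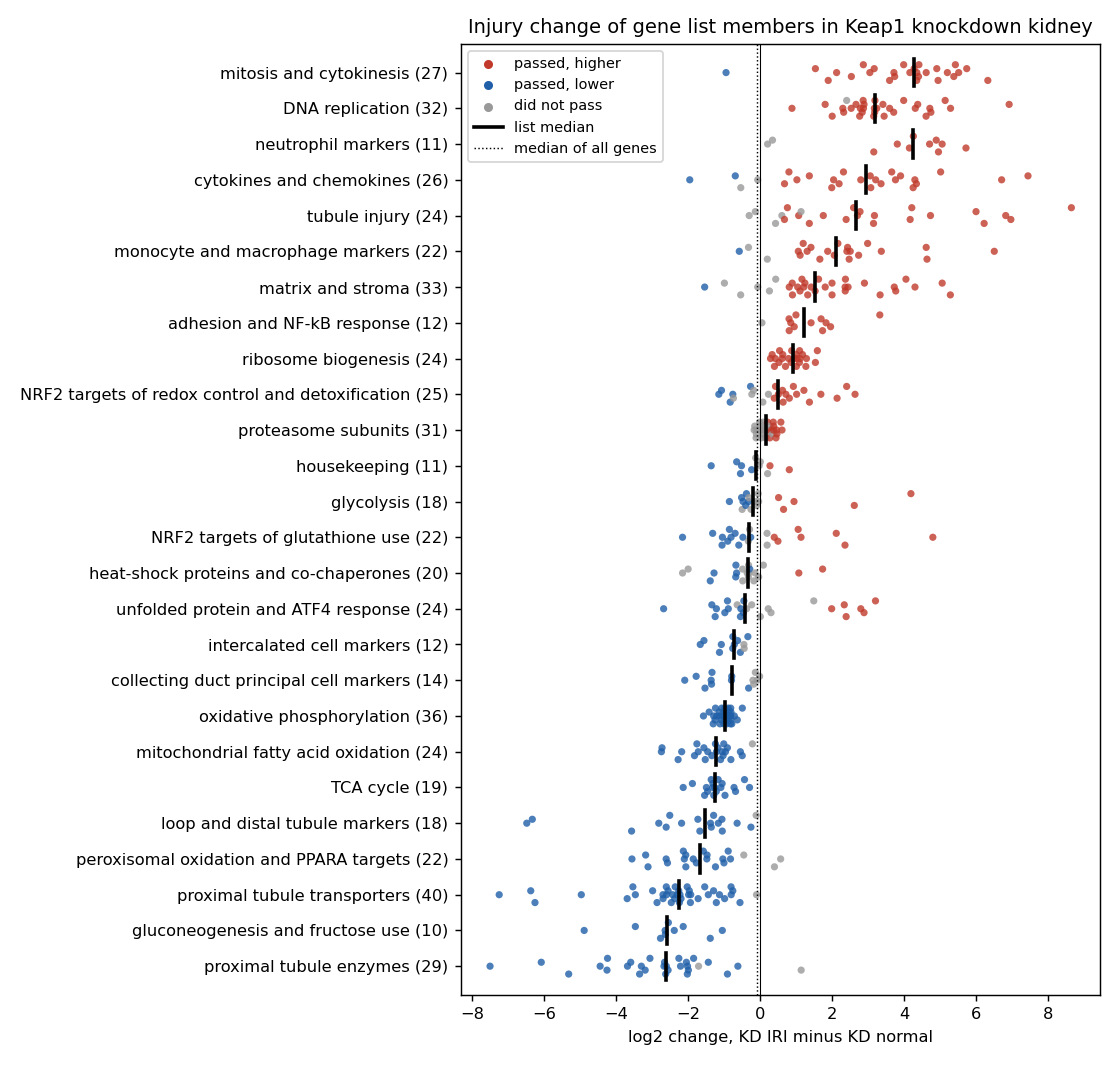
Change of every tested member of the larger gene lists in the Keap1 knockdown kidney, 1 point per gene, on the log2 scale (KD IRI minus KD normal, x axis). Red and blue points passed the test higher or lower, grey points did not, thick bars are list medians and the dotted line is the median of all genes (-0.08). DNA replication, mitosis, neutrophil and cytokine members lie mostly to the right of 0, and transporter, metabolic and nephron segment members mostly to the left. Fitted changes of genes below background in KD normal are included as measured.

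Chemokines and cytokines rose. Of 26 genes tested, 22 rose and 2 fell, and the median change was 2.93 (2.11 if genes under background are set to their bound), and of the 18 measured in both groups 14 rose with a median of 2.02. Under normexp 17 of the list rose and its median was 1.33. Ccl2, which draws monocytes, read -2.66 and -2.23 in KD normal and 1.79 and 2.01 in KD IRI and rose by 4.35 ± 0.20 (adjusted p = 1.8e-05). Ccl7, another monocyte attractant, was at least 27.1-fold higher (measured means -7.45 and -0.74, adjusted p = 2.04e-05). Cxcl5, a neutrophil attractant, was at least 6.59-fold higher (measured means -7.80 and -2.78, adjusted p = 2.06e-05), a call lost under normexp background correction. Cxcl12, the ligand of CXCR4, read 3.07 and 3.11 in KD normal and 2.43 and 2.38 in KD IRI and fell by 0.69 ± 0.081 (adjusted p = 0.000386). Of the 12 adhesion and NF-kB response genes, 11 rose and none fell, 7 rising without the second KD IRI array or under normexp (median 0.68). Relb and Nfkb2, which form the dimer of the non-canonical pathway, rose by 1.96 ± 0.12 and 1.83 ± 0.086 (adjusted p = 3.64e-05 and 1.85e-05). The NF-kB inhibitor gene Nfkbia read 3.46 and 3.99 in KD normal and 3.82 and 3.73 in KD IRI and did not pass (change 0.051 ± 0.22, adjusted p = 0.856).

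Of 16 genes of IL-6 family receptors and STAT3 signalling, 6 rose and 2 fell, with 8 short of the threshold (median 0.16), and only 3 rose without the first KD normal array or without the second KD IRI array. Socs3, the feedback inhibitor that STAT3 induces, read 0.14 and 1.63 in KD normal and 3.31 and 3.84 in KD IRI and rose by 2.69 ± 0.46 (adjusted p = 0.00217). The receptor genes Lifr and Il11ra1 fell by 1.65 ± 0.12 and 0.73 ± 0.089 (adjusted p = 5.2e-05 and 0.000458). Of 18 interferon-stimulated genes 9 rose and none fell (median 0.43), a count of 5 without the first KD normal array, 4 without the second and 3 without the second KD IRI array. Oasl1, an antiviral protein that restrains translation of interferon regulators, read -1.90 and -2.06 in KD normal and 0.47 and 0.72 in KD IRI and rose by 2.57 ± 0.12 (adjusted p = 1.9e-05).

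Markers of myeloid cells were higher after injury. Of 11 neutrophil markers 9 rose, with a median of 4.26 (3.81 with bounds), but 7 had been kept through KD IRI alone and 2 of the 4 measured in both groups rose. Under normexp 6 of the 11 rose and the median was 1.84. S100a8, a calcium-binding protein abundant in neutrophils, read -3.81 and -1.03 in KD normal and 2.35 and 2.60 in KD IRI and rose by 4.90 ± 0.89 (adjusted p = 0.00277), the second KD normal array being the one that stood apart, and this call was lost in the deposited table. Csf3r, the receptor of the neutrophil growth factor, was at least 29.8-fold higher (measured means -6.28 and -0.55, adjusted p = 9.19e-05). The median of the list was 3.23 without the first KD normal array and 5.47 without the second, and 5 members rose in the deposited table. Of 22 monocyte and macrophage markers 19 rose and 1 fell (median 2.11), and of the 18 measured in both groups 15 rose and 1 fell (median 1.77). The summed signal of the list was 85.5 and 91.5 in KD normal and 157 and 177 in KD IRI. Chil3, a secreted lectin of alternatively activated macrophages, read -2.44 and -1.46 in KD normal and 2.44 and 2.90 in KD IRI and rose by 4.62 ± 0.56 (adjusted p = 0.000439). Msr1, a scavenger receptor, was at least 22.1-fold higher (measured means -5.67 and -1.03, adjusted p = 2.82e-05). The marker that fell was Csf1r, the receptor that keeps resident macrophages alive, at 0.96 and 1.21 in KD normal and 0.33 and 0.68 in KD IRI (change -0.58 ± 0.16, adjusted p = 0.016), a call lost without the second KD normal array or the first KD IRI array.

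Lymphocyte and antigen-presentation markers gave no common direction. The 10 lymphocyte markers tested had a summed signal of 0.652 and 0.435 in KD normal and 0.602 and 0.673 in KD IRI, close to background throughout, and 3 rose and 1 fell, none rising under normexp, without the second KD normal array or without either KD IRI array. Of the 5 measured in both groups 1 rose and 0 fell. The median of all 10, 0.069, turned to -0.50 under normexp. Of 10 MHC class II and dendritic cell genes, 2 rose and 3 fell, with a median of 0.22 that turned to -0.27 under normexp. The class II chain gene H2-Ab1 read 3.52 and 3.53 in KD normal and 2.53 and 2.70 in KD IRI and fell by 0.91 ± 0.14, and Cd74, its invariant chain, fell by 0.88 ± 0.086 (adjusted p = 0.00117 and 0.000176). Itgax, the integrin CD11c, read -1.95 and -2.14 in KD normal and -0.47 and -0.20 in KD IRI and rose by 1.71 ± 0.18 (adjusted p = 0.000253).

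Among complement genes 2 of 13 rose and 5 fell (median -0.26). C3, the hub of the cascade, read 1.64 and 1.30 in KD normal and 3.56 and 3.76 in KD IRI and rose by 2.19 ± 0.44 (adjusted p = 0.00451). C8g, a chain of the membrane attack complex, read 1.34 and 1.44 in KD normal and -1.85 and -2.45 in KD IRI and fell by 3.54 ± 0.27 (adjusted p = 6.46e-05), and Cfb, the protease of the alternative pathway, fell by 1.67 ± 0.15 (adjusted p = 0.000114). Of 16 fibrinogen, coagulation and fibrinolysis genes 11 rose and 1 fell (median 1.30), 7 rising without the first KD normal array or without either KD IRI array. Procr, the endothelial receptor of protein C, read -1.36 and -1.32 in KD normal and 1.34 and 1.76 in KD IRI and rose by 2.89 ± 0.16 (adjusted p = 2.68e-05).

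The transporters of the proximal tubule fell almost without exception. Of 40 tested, 39 fell and 1 stayed short of the threshold, and the median change was -2.25. Slc22a7, a carrier of organic anions, read 6.02 and 5.83 in KD normal and -1.12 and -1.55 in KD IRI and fell by 7.26 ± 0.29 (adjusted p = 1.4e-05). Slc22a13, a urate and organic anion transporter, read 4.22 and 4.08 in KD normal and -2.07 and -2.39 in KD IRI and fell by 6.38 ± 0.18 (adjusted p = 5.57e-06). Slc7a13, an amino acid transporter of the last part of the proximal tubule, read 4.78 and 4.94 in KD normal and -0.59 and -2.22 in KD IRI and fell by 6.26 ± 0.68 (adjusted p = 0.000266), its 2 KD IRI arrays lying far apart. Slc34a1 fell by 2.47 ± 0.26 (adjusted p = 0.000232). The gene that did not pass was Slc26a1, a sulfate exchanger of the basolateral membrane, at 2.05 and 1.98 in KD normal and 2.09 and 1.74 in KD IRI (change -0.10 ± 0.21, adjusted p = 0.699). The summed transporter signal was 1601 and 1498 in KD normal and 384 and 308 in KD IRI, so both KD IRI arrays were far below both KD normal arrays.

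Proximal tubule enzymes did the same, 27 of 29 falling and none rising, with a median of -2.63. Mep1b, the beta chain of the brush-border protease meprin, read 3.21 and 3.24 in KD normal and -3.73 and -4.83 in KD IRI and fell by 7.51 ± 0.53 (adjusted p = 5.16e-05). Cyp7b1, an oxysterol hydroxylase, read 5.91 and 6.06 in KD normal and -0.10 and -0.11 in KD IRI and fell by 6.09 ± 0.11 (adjusted p = 1.86e-06), and Cyp2e1 fell by 4.45 ± 0.28 (adjusted p = 3.87e-05). Cyp27b1, which makes active vitamin D, read -0.51 and -2.73 in KD normal and -3.15 and -3.52 in KD IRI and did not pass (change -1.71 ± 0.66, adjusted p = 0.0665). It passed under normexp, with array weights, with the replicate number (the slide) as a block (adjusted p = 0.0443) and, at -2.82, without the second KD normal array. Outside the lists, Akr1c18, which inactivates progesterone, had the largest measured fall, 8.12 ± 0.23 (adjusted p = 5.57e-06, 1.97 and 2.44 in KD normal and -6.12 and -5.71 in KD IRI), with 1 of the 2 KD IRI arrays above background. Hpd, of tyrosine breakdown, fell by 7.15 ± 0.37 (adjusted p = 2.24e-05), again with 1 KD IRI array above background. Serpina1c, Serpina1d and Serpina1f, of the alpha-1 antitrypsin family, fell by 6.79, 6.13 and 6.24. Some genes of this family are near-identical copies, which probes may not tell apart. Higd1c, at least 114-fold lower (measured means 1.01 and -6.16, adjusted p = 5.57e-06), and C8a, a complement chain, at least 95.5-fold lower (measured means 0.75 and -7.25, adjusted p = 4.06e-05), were the largest bounds on a fall.

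Segments beyond the proximal tubule fell too. Of 18 loop and distal tubule markers 17 fell and none rose (median -1.53). Egf, the growth factor precursor of the thick ascending limb and distal tubule, read 5.70 and 5.79 in KD normal and -0.74 and -0.75 in KD IRI and fell by 6.49 ± 0.19 (adjusted p = 5.57e-06). Calb1, the calcium-binding calbindin of the distal tubule, read 4.73 and 4.79 in KD normal and 1.07 and 1.29 in KD IRI and fell by 3.58 ± 0.11 (adjusted p = 7.14e-06). Kl, the FGF23 co-receptor Klotho, read 4.48 and 4.41 in KD normal and 1.86 and 1.39 in KD IRI and fell by 2.82 ± 0.27 (adjusted p = 0.00017). The groups of arrays did not overlap for any of these 3 genes, which adds little to the tests. Cldn19, a tight-junction protein of the thick limb, read -1.54 and -1.59 in KD normal and -1.63 and -1.72 in KD IRI and did not pass (change -0.11 ± 0.14, adjusted p = 0.523).

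In the collecting duct 9 of 14 principal cell markers fell (median -0.79) and 10 of 12 intercalated cell markers fell (median -0.74), with no rise in either list. Aqp2, the vasopressin-regulated water channel, read 4.77 and 5.36 in KD normal and 3.51 and 2.42 in KD IRI and fell by 2.10 ± 0.45 (adjusted p = 0.00605). Avpr2, the vasopressin receptor, read 0.56 and 0.76 in KD normal and -1.04 and -1.19 in KD IRI and fell by 1.78 ± 0.14 (adjusted p = 7.26e-05). Atp6v0a4, a subunit of the proton pump, read 3.25 and 3.40 in KD normal and 1.83 and 1.49 in KD IRI and fell by 1.67 ± 0.12 (adjusted p = 6.09e-05). Scnn1b, a chain of the epithelial sodium channel, read 0.004 and 0.19 in KD normal and -0.19 and -0.02 in KD IRI and did not pass (change -0.20 ± 0.099, adjusted p = 0.12). Podocyte markers split, 4 of 12 rising and 4 falling (median -0.084), with 2 rising without the first KD normal array or without either KD IRI array. Both podocyte shares lie near the 28% higher and 32.6% lower of all genes. Cd2ap, an adaptor of the slit diaphragm, rose by 0.77 ± 0.079 and Nphs1, nephrin, fell by 0.55 ± 0.12 (adjusted p = 0.000208 and 0.00611). Of 14 endothelial markers 7 rose and 2 fell (median 0.40), 2 rising without the second KD IRI array. Kdr, the main VEGF receptor, read 2.0 and 1.86 in KD normal and 1.26 and 1.21 in KD IRI and fell by 0.70 ± 0.16, while Cdh5, the endothelial cadherin, rose by 0.64 ± 0.14 (adjusted p = 0.00876 and 0.00601).

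Genes of mitochondrial metabolism fell together. All 36 oxidative phosphorylation genes and all 19 TCA cycle genes fell, with medians of -0.97 and -1.26. Under quantile normalization 34 and 17 of them fell, with medians of -0.53 and -0.92, and under normexp 32 and 17. Ndufs1, a core subunit of complex I, read 5.69 and 5.64 in KD normal and 4.15 and 4.02 in KD IRI and fell by 1.58 ± 0.096 (adjusted p = 3.38e-05). Pcx, pyruvate carboxylase, read 5.80 and 5.76 in KD normal and 3.81 and 3.47 in KD IRI and fell by 2.14 ± 0.13, and Sdhb, a subunit of complex II, fell by 1.54 ± 0.095 (adjusted p = 3.26e-05 and 3.44e-05). Of 24 genes of mitochondrial fatty acid oxidation 23 fell (median -1.23). Acadm, the medium-chain acyl-CoA dehydrogenase, read 7.37 and 7.22 in KD normal and 4.71 and 4.38 in KD IRI and fell by 2.75 ± 0.12 (adjusted p = 1.79e-05). Slc27a2, a fatty acid transport protein, read 7.38 and 7.31 in KD normal and 4.84 and 4.39 in KD IRI and fell by 2.73 ± 0.15 (adjusted p = 2.82e-05). Slc25a20, the carnitine-acylcarnitine carrier, read 0.68 and 0.52 in KD normal and 0.33 and 0.44 in KD IRI and did not pass (change -0.21 ± 0.15, adjusted p = 0.262).

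Peroxisomal oxidation and PPARA target genes fell in 19 of 22 cases and rose in none (median -1.68). Ehhadh, the bifunctional enzyme of peroxisomal beta-oxidation, read 5.31 and 5.24 in KD normal and 1.91 and 1.50 in KD IRI and fell by 3.56 ± 0.30 (adjusted p = 9.85e-05). Acox3 and Crot, also peroxisomal, fell by 3.12 ± 0.13 and 2.61 ± 0.075 (adjusted p = 1.52e-05 and 5.57e-06). Gluconeogenesis and fructose use lost signal in all 10 genes, each of which fell (median -2.59). G6pc, the catalytic subunit of glucose-6-phosphatase, read 5.29 and 6.49 in KD normal and 1.19 and 0.80 in KD IRI and fell by 4.89 ± 0.37 (adjusted p = 6.39e-05). Slc37a4, which carries glucose-6-phosphate to that enzyme, read 6.06 and 6.34 in KD normal and 3.55 and 3.30 in KD IRI and fell by 2.77 ± 0.12 (adjusted p = 1.67e-05). The groups of arrays did not overlap for Ehhadh, G6pc or Slc37a4, which again adds little to the tests.

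Of 18 glycolysis genes 5 rose and 6 fell, shares near the 28% higher and 32.6% lower of all genes. Their median of -0.18 turned to 0.11 under quantile normalization, where 1 fell. Hk2, the inducible hexokinase, read -2.27 and -1.57 in KD normal and 2.16 and 2.39 in KD IRI and rose by 4.19 ± 0.30 (adjusted p = 5.39e-05). Slc16a3, a lactate exporter, read -2.21 and -2.20 in KD normal and 0.26 and 0.57 in KD IRI and rose by 2.62 ± 0.12 (adjusted p = 1.8e-05). Pfkm, the muscle-type phosphofructokinase, fell by 0.85 ± 0.13 (adjusted p = 0.00119). Of 16 hypoxia-inducible factors and targets 2 rose and 8 fell (median -0.36), 5 falling under quantile normalization or without the first KD IRI array. Vegfa, the endothelial growth factor, read 2.80 and 2.59 in KD normal and 1.30 and 1.24 in KD IRI and fell by 1.43 ± 0.10, and Adm, adrenomedullin, read -0.12 and 0.14 in KD normal and 1.06 and 1.31 in KD IRI and rose by 1.18 ± 0.17 (adjusted p = 5.34e-05 and 0.000854).

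In tryptophan breakdown and NAD synthesis 8 of 11 genes fell and 2 rose (median -1.0). Kmo, kynurenine monooxygenase, read 1.14 and 1.22 in KD normal and -1.87 and -2.47 in KD IRI and fell by 3.35 ± 0.20 (adjusted p = 3.43e-05), and Qprt, the entry to NAD from quinolinate, fell by 1.33 ± 0.18 (adjusted p = 0.00066). Of 19 genes of cholesterol synthesis and uptake 11 fell and 3 rose (median -0.57). Cyp51, a demethylase of the sterol pathway, read 2.26 and 2.04 in KD normal and -0.83 and -0.83 in KD IRI and fell by 2.98 ± 0.14 (adjusted p = 1.99e-05). Polyamine genes gave 3 rises and 3 falls among 11, near the shares of all genes (median 0.23, -0.12 when a gene's probes are averaged). Under quantile normalization 5 rose and none fell. Srm, spermidine synthase, rose by 1.64 ± 0.086 and Smox, spermine oxidase, by 2.04 ± 0.18 (adjusted p = 2.35e-05 and 0.000114).

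The NRF2 pathway was examined from its regulators to its targets. None of the 12 KEAP1-NRF2 regulators rose and 5 fell (median -0.33), while quantile normalization gave 3 rises and 2 falls, and 3 fell without either KD normal array or without the second KD IRI array. Nfe2l2 read 2.84 and 3.20 in KD normal and 3.27 and 3.24 in KD IRI and did not pass (change 0.24 ± 0.12, adjusted p = 0.112), but passed under quantile normalization and without the second KD normal array. Cul3, the scaffold of the ligase, read 1.51 and 1.34 in KD normal and 0.79 and 0.60 in KD IRI and fell by 0.73 ± 0.099 (adjusted p = 0.00073). The small MAF gene Mafk read -0.26 and 0.21 in KD normal and -0.83 and -0.70 in KD IRI and fell by 0.74 ± 0.19 (adjusted p = 0.0136), a call lost without the second KD normal array or the first KD IRI array.

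Targets that make or use glutathione moved both ways. Of 22 tested, 7 rose and 11 fell (median -0.31), and 7 fell under quantile normalization and under normexp. Gsta4, a transferase for lipid aldehydes, read 0.86 and 0.90 in KD normal and 3.05 and 2.93 in KD IRI and rose by 2.12 ± 0.095 (adjusted p = 1.79e-05). Gpx2, an epithelial glutathione peroxidase, read -2.14 and -1.48 in KD normal and 0.32 and 0.78 in KD IRI and rose by 2.36 ± 0.26 (adjusted p = 0.000269). Slc7a11, the cystine importer, rose by 4.80 ± 0.61 (adjusted p = 0.000543) with 1 of the 2 KD normal arrays above background. Ggt1, the brush-border enzyme that opens extracellular glutathione, read 6.23 and 6.08 in KD normal and 4.23 and 3.77 in KD IRI and fell by 2.16 ± 0.20 (adjusted p = 0.000143), and Gpx1 fell by 1.32 ± 0.068 (adjusted p = 2.21e-05). Gclc, the catalytic subunit of the rate-limiting enzyme of glutathione synthesis, read 5.80 and 5.69 in KD normal and 5.26 and 5.05 in KD IRI and fell by 0.59 ± 0.10 (adjusted p = 0.00214), and under quantile normalization its change was -0.17 and did not pass. Gclm, the modifier subunit, read 1.82 and 1.73 in KD normal and 1.65 and 1.32 in KD IRI and did not pass (change -0.29 ± 0.13, adjusted p = 0.0805), but passed at -0.46 without the first KD IRI array.

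Targets of redox control and detoxification rose more often than they fell: 15 of 25 rose and 5 fell (median 0.51), 3 falling under quantile normalization (median 0.88). Nqo1, the quinone reductase, read 3.31 and 3.30 in KD normal and 4.15 and 3.89 in KD IRI and rose by 0.72 ± 0.12 (adjusted p = 0.00162). Txnrd1, the thioredoxin reductase of the cytosol, read 4.88 and 5.07 in KD normal and 5.77 and 5.80 in KD IRI and rose by 0.81 ± 0.082 (adjusted p = 0.000199). Akr1b8, an aldo-keto reductase, read 4.0 and 4.59 in KD normal and 6.69 and 6.72 in KD IRI and rose by 2.41 ± 0.23, and Cbr3, a carbonyl reductase, by 2.14 ± 0.16 (adjusted p = 0.000158 and 6.48e-05). Hmox1, the inducible heme oxygenase, read 6.03 and 5.55 in KD normal and 4.91 and 5.15 in KD IRI and fell by 0.76 ± 0.16 (adjusted p = 0.00558), while under quantile normalization its change was -0.31 and did not pass. Osgin1, a growth inhibitor induced by oxidative stress, read 3.77 and 3.63 in KD normal and 2.48 and 2.62 in KD IRI and fell by 1.15 ± 0.24 (adjusted p = 0.00481). Of the 9 NADPH supply genes 5 rose and 3 fell (median 0.68), while under normexp 4 rose and 2 fell with a median of 0.145. Pgd and G6pdx, dehydrogenases of the pentose phosphate pathway, rose by 1.44 ± 0.10 and 1.07 ± 0.10 (adjusted p = 5.57e-05 and 0.000144), and Me1, cytosolic malic enzyme, fell by 1.63 ± 0.10 (adjusted p = 3.78e-05).

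Many of these targets already differed from WT before injury, in a comparison that shares the KD normal arrays with the injury change and so cannot be set against it as separate evidence. KD normal exceeded WT normal by 4.21 for Hmox1, 2.02 for Gclc, 1.34 for Nqo1 and 1.02 for Txnrd1 on the log2 scale (adjusted p = 0.000698, 0.000839, 0.00354 and 0.00287). In WT kidneys the injury changes of the same genes, in that order, were 2.52, 0.49, 0.0082 and 0.40. In WT, Hmox1 read 1.57 and 1.60 in WT normal and 4.17 and 4.04 in WT IRI, so both KD normal arrays lay above both WT IRI arrays.

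**Figure D3:**
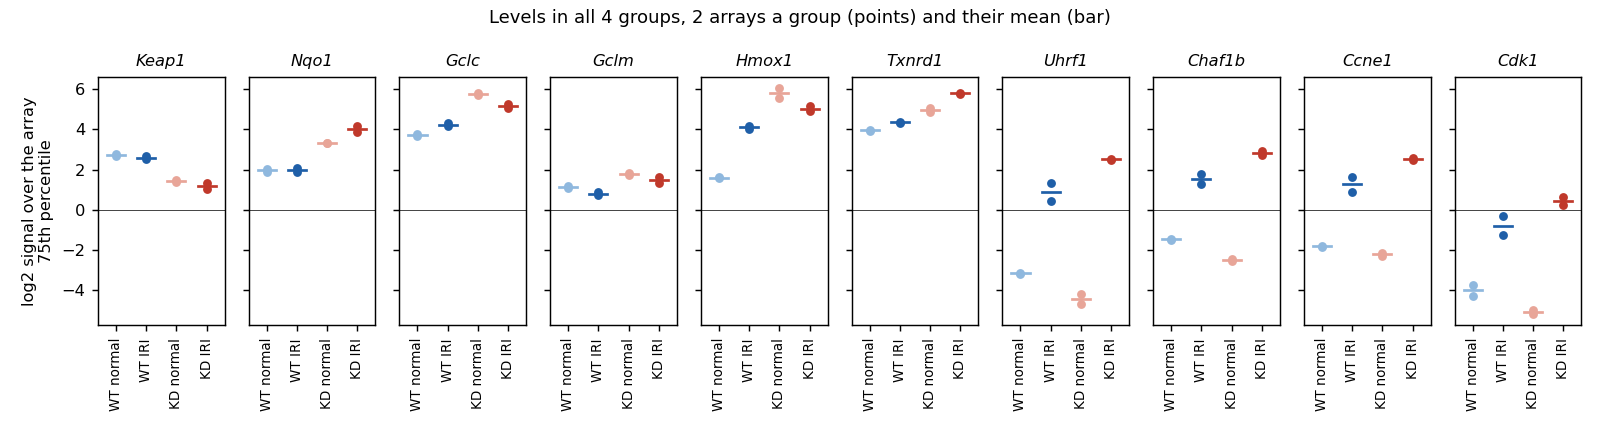
Levels of Keap1, 5 NRF2 targets and 4 cell-cycle genes in all 4 groups, with 1 point per array and a bar at the mean of 2 (y axis, log2 level relative to the array's upper quartile; levels of different genes are not comparable). Hmox1 and Gclc are high in both KD groups and lower in KD IRI than in KD normal, and the means of Uhrf1, Chaf1b, Ccne1 and Cdk1 are lowest in KD normal and highest in KD IRI.

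Promoter sequence was searched for the genes named in every case whose RefSeq promoter entry was at hand, taking the 4 with the largest changes (Havcr1, Lcn2, Slc34a1 and Txnrd1, with 8 start sites). The windows were the 250 bases before each start. The core of the antioxidant response element, TGACNNNGC on either strand, which NRF2 and its MAF partners bind, was found in 1 window, at a Txnrd1 start, and the AP-1 motif TGANTCA in 0. Over 32851 promoters of the same length the shares were 10.2% and 6.75%. The Txnrd1 window is shown because this NRF2 target rose in KD IRI. It lies at chr10:82858956-82859205 (GRCm38.p6, plus strand), the capitals mark the match, which is the reverse complement of the motif, and 83 bases separate it from the start.
Txnrd1: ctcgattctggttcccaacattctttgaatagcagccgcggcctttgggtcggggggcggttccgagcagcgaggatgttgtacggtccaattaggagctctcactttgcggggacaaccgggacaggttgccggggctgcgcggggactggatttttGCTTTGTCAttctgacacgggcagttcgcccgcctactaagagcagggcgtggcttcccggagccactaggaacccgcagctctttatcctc
A match of these letters is a description and not a measured binding site, and the absence of a match says only that the letters are not in these windows.

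Of 20 heat-shock proteins and co-chaperones 2 rose and 6 fell (median -0.34), a share of falls no higher than the 32.6% of all genes. Under quantile normalization 3 rose and 3 fell (median -0.089), and without the second KD normal array 14 fell. Hspa1b, an inducible HSP70, read 4.94 and 1.43 in KD normal and 0.87 and 1.19 in KD IRI, so that the first KD normal array alone was high, and it did not pass (change -2.16 ± 0.96, adjusted p = 0.0894). It passed under normexp (-2.02) and, at -3.92, without the second KD normal array. Hsph1, an HSP70 partner, read 6.32 and 5.42 in KD normal and 4.37 and 4.60 in KD IRI and fell by 1.39 ± 0.28 (adjusted p = 0.00443). Hspb1, the small heat-shock protein HSP27, read 3.34 and 2.45 in KD normal and 4.48 and 4.78 in KD IRI and rose by 1.74 ± 0.27 (adjusted p = 0.0013). The part of the first KD normal array's high heat-shock signal in these falls was not tested beyond leaving arrays out.

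In the unfolded protein and ATF4 response 6 of 24 genes rose and 11 fell (median -0.41), 7 falling under quantile normalization (median -0.06) or without the first KD IRI array and 6 without the second. Trib3, a pseudokinase downstream of ATF4, read -2.40 and -2.65 in KD normal and 0.59 and 0.78 in KD IRI and rose by 3.21 ± 0.14 (adjusted p = 1.67e-05). Slc7a5, an importer of large amino acids, and Mthfd2, of mitochondrial folate use, rose by 2.80 ± 0.22 and 2.39 ± 0.20 (adjusted p = 7.06e-05 and 9.55e-05). Herpud1, of the breakdown of misfolded proteins in the endoplasmic reticulum, read 5.90 and 5.86 in KD normal and 3.38 and 3.01 in KD IRI and fell by 2.68 ± 0.19 (adjusted p = 4.89e-05), and Edem1, of the same process, fell by 1.25 ± 0.10 (adjusted p = 8.23e-05). Proteasome subunits rose in 12 of 31 cases and fell in none (median 0.18). That count was 23 under quantile normalization (median 0.53) and 7 without the first KD normal array or the first KD IRI array. Psma7, of the outer ring of the core, read 4.73 and 4.63 in KD normal and 5.31 and 5.27 in KD IRI and rose by 0.61 ± 0.077 (adjusted p = 0.000546). All 24 ribosome biogenesis genes rose (median 0.90). Nop58, a core protein of small nucleolar particles, read 1.82 and 1.33 in KD normal and 3.01 and 3.21 in KD IRI and rose by 1.54 ± 0.16 (adjusted p = 0.000231).

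Of 17 genes of p53 and its targets 9 rose and 2 fell (median 0.61), and without the first KD normal array 4 fell and the median was 0.37. Phlda3, a p53-induced inhibitor of AKT, read 1.07 and 1.22 in KD normal and 2.80 and 3.0 in KD IRI and rose by 1.76 ± 0.10 (adjusted p = 2.86e-05). Trp53 fell by 1.28 ± 0.19 (adjusted p = 0.00181) on its brightest probe, while another of its probes was called in the opposite direction and their mean changed by 0.13. Cell death genes gave 10 rises and 2 falls among 21 (median 0.54, 0.36 under normexp). Mlkl and Ripk3, effector and kinase of necroptosis, read -2.76 and -2.68 in KD normal and 0.64 and 0.79 in KD IRI for Mlkl and -2.77 and -2.76 in KD normal and 0.28 and 0.68 in KD IRI for Ripk3, rises of 3.43 ± 0.16 and 3.25 ± 0.20 (adjusted p = 1.85e-05 and 3.35e-05). Pycard, the adaptor of inflammasomes, read 0.45 and 0.24 in KD normal and 2.58 and 2.66 in KD IRI and rose by 2.27 ± 0.093, while the sensor gene Nlrp3 read -2.61 and -2.0 in KD normal and -4.85 and -4.62 in KD IRI and fell by 2.43 ± 0.29 (adjusted p = 1.45e-05 and 0.000405).

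Matrix and stroma genes rose in 27 of 33 cases and fell in 1 (median 1.53). Col1a1, of type I collagen, read -0.08 and -0.43 in KD normal and 4.87 and 5.20 in KD IRI and rose by 5.29 ± 0.15 (adjusted p = 5.57e-06). Col3a1, of type III collagen, read 0.26 and 0.42 in KD normal and 4.20 and 4.59 in KD IRI and rose by 4.06 ± 0.18 (adjusted p = 1.68e-05). Timp3, an inhibitor of metalloproteinases bound to matrix, read 6.50 and 6.43 in KD normal and 4.99 and 4.85 in KD IRI and fell by 1.54 ± 0.13 (adjusted p = 9.6e-05). Of 18 TGF-beta, BMP and activin genes 4 rose and 3 fell (median 0.18), shares no higher than those of all genes. Inhba, which encodes activin A, read -4.92 and -4.05 in KD normal and -1.11 and -0.49 in KD IRI and rose by 3.68 ± 0.33, Tgfb1 rose by 1.86 ± 0.13, and Bmp7 fell by 1.02 ± 0.17 (adjusted p = 0.000127, 5.06e-05 and 0.00195).

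Among 11 EGF receptor ligands and receptors 2 rose and 4 fell (median -0.20, -0.50 under normexp), counts near the shares of all genes. Areg, amphiregulin, was at least 3.84-fold higher (measured means -7.14 and -3.56, adjusted p = 3.07e-05), a call lost under normexp. The summed signal of the list was 63.4 and 69.6 in KD normal and 11.7 and 13 in KD IRI, Egf itself having fallen as given above. Of 18 nephron and repair transcription factors 4 rose and 7 fell (median -0.32), again near the shares of all genes. Sox9, which marks regenerating tubule cells, read -3.71 and -4.91 in KD normal and -0.24 and 0.064 in KD IRI and rose by 4.22 ± 0.61 (adjusted p = 0.000957). Hnf4a, of proximal tubule identity, read 4.16 and 3.80 in KD normal and 2.52 and 2.05 in KD IRI and fell by 1.70 ± 0.18, and Klf15 read 3.68 and 3.94 in KD normal and 0.31 and -0.39 in KD IRI and fell by 3.85 ± 0.25 (adjusted p = 0.000232 and 4.2e-05). Of 7 renin-angiotensin genes 6 fell and none rose (median -0.96), with Ace at 0.63 and 0.81 in KD normal and -1.93 and -2.33 in KD IRI (fall of 2.85 ± 0.18, adjusted p = 3.79e-05) and Ren1, renin, at 3.48 and 4.01 in KD normal and 2.72 and 2.85 in KD IRI (fall of 0.96 ± 0.18, adjusted p = 0.00346).

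Markers of tissue that could be taken along with the kidney gave no common direction. Of 7 blood, fat, adrenal and muscle markers tested 2 rose and 1 fell, their median (-0.22) turned to 0.61 without the second KD normal array and 0.74 without the second KD IRI array, and their summed signal was 66.7 and 65.5 in KD normal and 42.8 and 43.2 in KD IRI. Acta1, skeletal muscle actin, read -3.20 and -3.17 in KD normal and -1.51 and -1.08 in KD IRI and rose by 1.89 ± 0.18 (adjusted p = 0.000141). Of 11 housekeeping genes 2 rose and 5 fell (median -0.12, 0.24 under quantile normalization, where 5 rose and 3 fell). Sdha, of complex II, read 3.84 and 3.79 in KD normal and 2.48 and 2.42 in KD IRI and fell by 1.36 ± 0.094, and Rpl13a, of the ribosome, rose by 0.81 ± 0.078 (adjusted p = 4.88e-05 and 0.00016). Hprt read 4.30 and 4.24 in KD normal and 4.56 and 4.39 in KD IRI and did not pass (change 0.21 ± 0.099, adjusted p = 0.109), but rose by 0.62 under quantile normalization (adjusted p = 0.00145).

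The injury response of WT kidneys, measured on 4 other arrays, allows the question whether the response depended on the genotype. Over the same 20183 genes injury changed 9434 in WT, 46.7% of those tested. In both genotypes 7904 genes changed in the same direction, 3565 upward and 4339 downward, which was 64.6% of the genes changed in KD and 83.8% of those changed in WT, and 93 changed in opposite directions. Across genes the 2 sets of changes correlated with r = 0.832, a description since genes are not independent replicates. The median absolute change was 0.56 in KD and 0.40 in WT. A change called in KD and not in WT is no difference by itself: of 4233 such genes the difference passed its own test in 469. In all, the injury change differed between KD and WT in 1362 genes (6.75%), 783 with a more positive and 579 with a more negative change in KD, and 5309 had an unadjusted p under 0.05. Of the 1362, 1206 had the larger absolute change in KD. The genes were kept by the filter on the KD arrays alone. The shares called, the median absolute changes and the 1206 are therefore not an even comparison of the genotypes. The count of 1362 changed greatly with 1 array left out, a fit in which 1 group has a single array. Such a loss does not show that the omitted array made the differences. Without the first or the second WT normal array the median replication difference was 1.351 or 1.416, against 1.374 with all arrays. With any 1 of the 8 arrays left out it lay between 1.045 and 1.725. Of the differences given by gene below and in the closing section, 41 and 40 no longer passed without the first or the second WT normal array, 9 and 20 without the first or the second KD normal array, 27 and 40 without the first or the second KD IRI array, and 1 and 8 without the first or the second WT IRI array. With all arrays kept, 19 no longer passed in the deposited table, 21 without a filter and 11 without the intensity trend, and under normexp those of Cdk1, Gclc, Gpx2, Nlrp3 and Ndrg1 did not pass.

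Cell-cycle genes made up the most visible difference. For DNA replication the injury change was more positive in KD for all 32 genes, with a median of 3.18 in KD and 1.71 in WT, and the difference passed in 23. For Uhrf1 it was 4.05 in WT, a difference of 2.87 ± 0.42 (adjusted p = 0.0215), and for Chaf1b 3.01, a difference of 2.28 ± 0.23 (adjusted p = 0.0129). In WT, Uhrf1 read -3.19 and -3.13 in WT normal and 1.35 and 0.43 in WT IRI, so that KD normal lay below and KD IRI above the WT group of the same treatment. For mitosis all 27 differences were above 0, 13 passed, and the medians were 4.28 in KD and 2.14 in WT. Between the uninjured groups 7 mitosis genes were lower in KD and 0 higher (median -0.87). Between the injured groups 3 were higher in KD and 0 lower (median 1.15). For replication 7 were lower in KD before injury (median -0.45) and 24 higher in KD after it (median 1.03). These comparisons share arrays with the injury changes. Over the 16 mitosis genes above background on all 4 KD arrays 6 differences passed. For Cdk1 the difference was 2.29 ± 0.45 (adjusted p = 0.037). Under normexp 28 of the 32 replication and 22 of the 27 mitosis differences were above 0, and the median mitosis difference went from 1.96 to 0.857, with that of Cdk1 at 0.98 and no longer passing. Without a filter 10 replication and 2 mitosis differences passed, and the deposited table gave 14 and 7 that passed. With an array left out, between 31 and 32 of the replication differences stayed above 0, the 31 being without the second KD normal array. Far fewer passed in several of these fits, each of which has 1 group with a single array. For mitosis none passed without the first or the second WT normal array or without the second KD IRI array, 1 without the first KD IRI array, 2 without the second and 7 without the first KD normal array, and 8 without the second WT IRI array.

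Differences in metabolic genes passed for a minority of the genes listed. They passed in 0 of 36 oxidative phosphorylation, 0 of 19 TCA cycle, 3 of 24 mitochondrial fatty acid oxidation and 2 of 10 gluconeogenesis and fructose genes. All 22 peroxisomal and PPARA target genes had the more negative change in KD, with medians of -1.68 and -0.97, and 7 differences passed. None of the 22 passed without either WT normal array or the second KD IRI array, and 3 passed without a filter, in the deposited table, without the first KD IRI array or without the second KD normal array. Under normexp 4 of these differences were above 0. Ehhadh fell by 3.56 in KD and its WT change was -1.23, a difference of -2.34 ± 0.43 (adjusted p = 0.0319). G6pc had a WT change of -1.86 and a difference of -3.03 ± 0.52 (adjusted p = 0.0281), and Slc37a4 a difference of -1.58 ± 0.17 (adjusted p = 0.0139). Klf15 and Ndrg1, the latter a hypoxia-responsive gene that fell by 1.50 in KD, differed by -1.90 and -1.32 (adjusted p = 0.0335 and 0.021), and Atp6v0a4 by -1.38 (adjusted p = 0.0181).

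NRF2 targets differed in both directions. The Hmox1 change differed by -3.28 ± 0.23 (adjusted p = 0.00577) and that of Gclc by -1.08 ± 0.14 (adjusted p = 0.0187), since both rose with injury in WT and fell in KD. Gsta4 and Gpx2 rose more in KD, by 1.12 ± 0.13 and 1.89 ± 0.36 (adjusted p = 0.0164 and 0.0344). The Nqo1 difference of 0.71 ± 0.16 (adjusted p = 0.0508) and that of Txnrd1, 0.41 ± 0.12 (adjusted p = 0.0826), did not pass, but both passed under quantile normalization (0.91 and 0.60). Before injury 11 of the 24 unfolded protein and ATF4 genes and 11 of the 20 heat-shock genes were higher in KD than in WT, and 0 lower. After injury 0 genes of either list passed as higher or lower in KD. Herpud1 and Hspb1, the latter a gene that rose in KD, had more negative injury changes in KD by -1.50 and -1.88 (adjusted p = 0.0293 and 0.0377). Of the 24 unfolded protein and ATF4 genes 3 passed as more negative. None of those passed without a filter, without either WT normal array or without either KD IRI array, and 1 passed under quantile normalization. Among inflammatory and stromal genes, Pycard and Col1a1 rose more in KD by 1.40 and 1.70 (adjusted p = 0.0124 and 0.0168), and Nlrp3 and Egr2 had more negative changes by -2.23 and -2.45 (adjusted p = 0.0319 and 0.0234). Ren1 fell in KD while its WT change was 0.73, a difference of -1.69 ± 0.26 (adjusted p = 0.0224). The largest tested difference between genes measured on all KD arrays was that of Angptl7, a secreted angiopoietin-like protein, which read 4.44 and 6.02 in KD normal and -0.63 and -1.06 in KD IRI and 0.12 and -0.50 in WT normal and -0.27 and 0.95 in WT IRI: its KD change was -6.07 ± 0.58 and the difference -6.60 ± 0.82 (adjusted p = 0.0172), and neither passed in the deposited table.

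**Figure D4:**
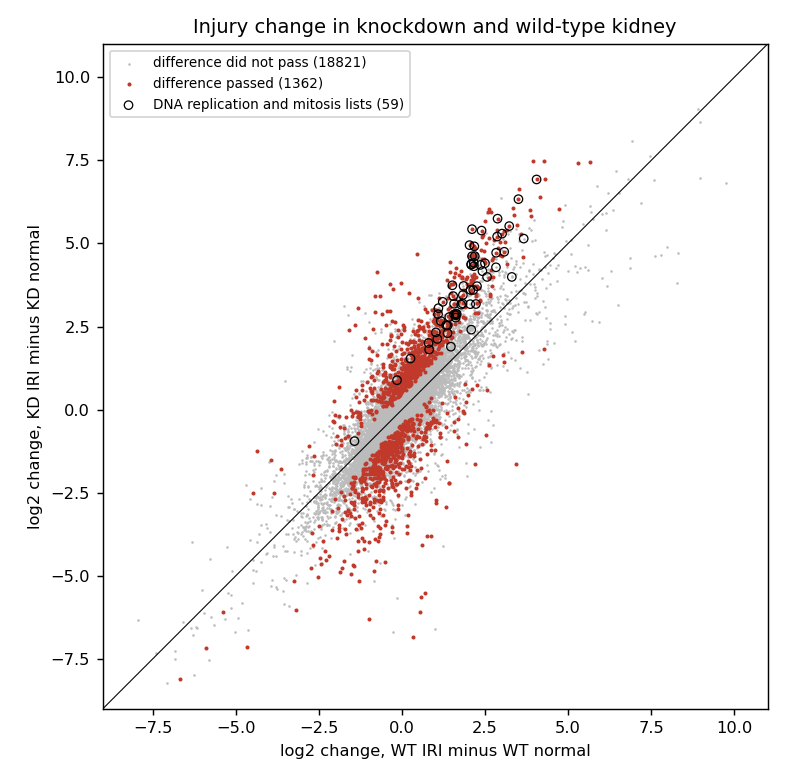
Injury change in KD kidneys (y axis, KD IRI minus KD normal) against that in WT kidneys (x axis, WT IRI minus WT normal), both in log2 units, 1 point per gene for 20183 genes. Red points are the 1362 genes whose difference passed, open circles the 59 DNA replication and mitosis genes tested, and the line marks equal change. All 59 circles lie above the line.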

How the data were processed

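Kidney RNA was hybridised to 8 one-colour Agilent arrays, 2 a group; each array received Cy3-labelled material from 300 ng of total RNA, per the labels. The deposited scanner files hold spot intensity, linear and with background removed by Agilent Feature Extraction 10.7.3.1, per the file headers. The deposited value table holds log2 values whose scaling and centring are not given in the sources used here; its columns tracked the scaled and probe-centred log2 intensity with r between 0.998 and 0.99995, in the same direction. The medians of its KD normal columns were 0.095 and 0.056, those of KD IRI -0.14 and -0.12, those of WT normal 0.160 and 0.125, and those of WT IRI -0.075 and -0.082.

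From the scanner files, log2 of the processed signal minus the 75th percentile over non-control probes was computed, spots of a probe were averaged, and outlier spots left out. The array design refers to an older mouse build than the RefSeq table (GRCm38.p6) that supplied names: 26682 of 41174 probes matched a symbol, 18213 symbols in all. The brightest of the kept probes stood for a gene; 5243 genes had more than 1, and 225 had another probe called in the opposite direction. The 4 group means were estimated over all 8 arrays in limma (version 3.58.1, under R 4.3.3 with the data.table package at version 1.17.8), with an intensity trend in the empirical Bayes step, 4 residual degrees of freedom, a prior of 2.929 (median), two-sided tests and Benjamini-Hochberg adjustment. The difference between genotypes was the contrast of the 2 injury changes. The script was tested on simulated data. Precision is limited by the number of arrays.

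The comparison, the 48 gene lists and the genes always named were chosen with earlier results of these data known. The lists held 952 distinct genes, of which 881 were tested, 824 of them kept through both KD groups, 50 through KD IRI only and 7 through KD normal only. Genes were named by a rule: 10 always (the injury and tubule genes Havcr1, Lcn2 and Slc34a1, then Keap1 and Nfe2l2, then the NRF2 targets Hmox1, Txnrd1, Nqo1, Gclm and Gclc), the 15 largest rises and falls above background on at least 1 array of both groups, the 8 largest bounds each way, up to 4 rises, 4 falls and 1 change not passing from each list, the 10 most positive and most negative differences, and 6 genes called in opposite directions. Not every gene so named is printed, and some are not reported here.

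Alternatives were quantile normalization, normexp background correction (offset 50, on the median spot signal, as the files hold no mean), the deposited table, other filters, no trend, array weights, only the KD arrays, a replicate block, other probe rules, a 2-fold minimum, and omission of each array in turn. The replicate number and the slide are the same term. Figures were drawn with matplotlib 3.10.9.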

Additional observations from a re-analysis of the deposited data

Results flagged for a closer look

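Each result here is a gene whose injury change differed between KD and WT kidneys by limma's test of that difference (adjusted p under 0.05); values are the KD change minus the WT change in log2 units, n = 2 arrays a group.

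More negative in KD were Cyp2b10 (-7.20), Grem1 (-6.21), Alkal2 (-6.19), Astn1 (-4.56), A2m (-4.24), Slc16a14 (-4.07) and Sh2d1a (-3.99). All 7 were well above background on neither KD IRI array, so these fitted differences depend on signals near background and are no bounds. These genes had been kept through KD normal alone, where they are high by selection. Under normexp Grem1 (-3.66), Astn1 (-2.31), A2m (-2.28) and Sh2d1a (-2.90) did not pass. Cyp2b10, a xenobiotic-metabolizing cytochrome, read -2.75 and 0.59 in KD normal and -8.03 and -7.84 in KD IRI, its 2 KD normal arrays lying far apart. Angptl7 (-6.60) and Fga, a fibrinogen chain (-5.06), were measured on all 4 KD arrays. Fga rose in WT (3.42), while its KD change of -1.64 did not pass. That KD change passed under normexp (-1.46) and in the limma fit on only the 4 KD arrays (adjusted p = 0.00505).

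More positive in KD were Atp13a4 (4.15), Doc2b (3.99), Clic6 (3.90), Dtl (3.52), Sppl2c (3.48), Iqgap3 (3.39), Rad54l (3.36), Igf2bp3 (3.34), Ccnb1 (3.32), Lrrn2 (3.28) and Cxcl5 (2.95). None of these 11 was well above background on a KD normal array, and again the values are no bounds. They had been kept through KD IRI alone, where they are high by selection. None of the 11 passed under normexp, where the differences were 0.94 for Dtl, 0.48 for Iqgap3, 0.42 for Rad54l, 0.16 for Ccnb1 and 0.07 for Clic6 and the other 6 were below 0. Dtl, an adaptor of the ligase that clears replication licensing factors, Rad54l, of homologous recombination, Iqgap3 and Ccnb1 rose in both genotypes.

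Genes called in opposite directions in the 2 genotypes included Rbp7 (-3.65), a retinol-binding protein, Nfil3 (-2.91), a bZIP repressor of the circadian clock, and Cyp2a22 (-2.21). Nfil3 read 1.25 and 1.84 in KD normal and 0.0073 and -0.0098 in KD IRI, against -1.15 and -0.78 in WT normal and 0.14 and 0.65 in WT IRI. The NRF2 targets Hmox1 (-3.28) and Gclc (-1.08) were in the same class.

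The other differences were 2.87 for Uhrf1, 2.29 for Cdk1, 2.28 for Chaf1b, 1.70 for Col1a1, 1.12 for Gsta4, 1.89 for Gpx2 and 1.40 for Pycard. Negative ones were -2.34 for Ehhadh, -1.50 for Herpud1, -3.03 for G6pc, -1.69 for Ren1, -2.45 for Egr2, -2.23 for Nlrp3, -1.32 for Ndrg1, -1.38 for Atp6v0a4, -1.58 for Slc37a4, -1.90 for Klf15 and -1.88 for Hspb1.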

How the results depend on the processing

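The 12230 injury-changed genes of the KD kidney became 12138 under quantile normalization (6436 higher, 5702 lower), 12041 in the deposited table and 9294 to 12604 with 1 array left out. They became 7482 under normexp (3513 higher, 3969 lower), which moved the median of all genes from -0.08 to -0.22, and 5475 with a fold minimum of 2; without a filter 11272 were lower. The 1362 differences between KD and WT became 797 with a fold minimum of 2, 704 in the deposited table, 546 without a filter and 815 without the intensity trend, and ranged from 6 to 1718 with 1 array left out, the highest without the first WT IRI array.

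Directions reversed for Pgk1 under quantile normalization (0.055), and under normexp for the KD changes of Gzma (-0.46), Plce1 (-0.037), Doc2b (-0.25), Sppl2c (-0.038) and Lrrn2 (-0.26) and the differences of Atp13a4 (-0.71), Doc2b (-1.15), Sppl2c (-1.01), Igf2bp3 (-0.94), Lrrn2 (-0.77) and Cxcl5 (-0.34). With the mean of all probes the changes of Bub1 (2.22) and Trp53 (0.13) reversed. The causes were not tested. Of 304 named genes past the threshold, 265 stayed past it with any 1 array left out and 246 in every other alternative.

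With the replicate block, that is with the replicate number as a fixed term, 12896 genes changed (5869 higher, 7027 lower) and 1625 differed. Same-numbered KD normal and KD IRI arrays deviated together with r = 0.11, and 2 numbers are too few to establish a pairing. The fit on only the KD arrays gives no difference. Changes of dim genes are limited by signal over background.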
